A study of Homo sapiens with 3 samples.

Results

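In MDA-MB-468 (MM468) breast cancer cells, 91 protein-coding genes outside a few named families had no read in the parental library and 100 or more reads in a library of cells selected for resistance to adriamycin or paclitaxel. They were chosen by these counts and by name. The count rule took protein-coding genes with a parental count of 0 and at least 100 counts in adriamycin-resistant or paclitaxel-resistant cells. Of the 46427 genes listed, 19672 were protein-coding and 5272 of those had a parental count of 0. Of the 5272, 106 (2.01%) met the rule, 36 of them (0.683%) in adriamycin-resistant and 88 (1.67%) in paclitaxel-resistant cells. A further step set aside 15 genes of transporter, collagen, keratin, adhesion and other families chosen by name, which left the 91 described here. Among the 91, 15 were on in adriamycin-resistant cells only, 61 in paclitaxel-resistant cells only and 15 in both. Because the rule used the counts themselves, the differences from parental MM468 describe the choice and carry no test.

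MM468 is an epithelial line derived from triple-negative breast cancer, labelled here as wild type and untreated in its parental form. The adriamycin-resistant line consists of cells that survived exposure to adriamycin (doxorubicin, a topoisomerase II poison) at 10 to 140 nmol/L, and the paclitaxel-resistant line of cells that survived paclitaxel (a drug that stabilizes microtubules) at 2 to 320 nmol/L. All came from the same wild-type line in the same medium, 1 RNA library was made from each with a stranded, poly(A)-selecting kit, and the sources do not say whether the resistant lines were clones, for how long they were exposed or whether drug was present at harvest. With 1 library per line, no difference has a replicate check, no SD can be given, and a count model such as that of edgeR has no spread between replicates to work with.

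A carcinoma cell keeps most genes of other lineages silent. Methylation of CpG dinucleotides in promoters, polycomb complexes that modify histone H3 at lysine 27, methylation of histone H3 at lysine 9 and removal of histone acetyl groups are the main ways in which this is done, and genes of the germline and of the embryo are well-known examples of genes held silent by promoter methylation. Genes without a CpG-rich promoter often depend more on the transcription factors of their tissue.

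The libraries held 32704885 counts in parental MM468, 47567927 in adriamycin-resistant and 43242628 in paclitaxel-resistant cells, so the parental library was the shallowest. A gene at 3 counts would stand at 0.0968, 0.0661 and 0.0627 CPM (counts relative to library size, adjusted by edgeR's TMM factors) in these libraries, and a parental count of 0 therefore allows a level of up to 0.0968 CPM. EPCAM, KRT8, KRT18, KRT19, CDH1 and EGFR, the 6 epithelial markers listed, had 3364 to 270028 counts in all 3 libraries. The 3 blood markers summed to 28, 8 and 48 counts in parental, adriamycin-resistant and paclitaxel-resistant cells, and the 3 endothelial markers to 30, 57 and 39. Of the 5 fibroblast markers, COL1A2 and LUM were at 0 in all libraries, DCN and PDGFRB reached at most 14 counts, and COL1A1 had 659, 1629 and 820 counts. SMAD4 and RB1, which are lost in this line, had 16, 35 and 104 and 66, 45 and 64 counts. SMAD4 thus passed 100 counts in paclitaxel-resistant cells, the level at which the genes just inside the threshold lie. ABCB1, the drug efflux pump P-glycoprotein, had 10, 8374 and 8171 counts in the same order.

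The silent genes that came on were mostly those of the paclitaxel-resistant line. Of the 5272 protein-coding genes without a parental count, 4487 were also at 0 in adriamycin-resistant and 4100 in paclitaxel-resistant cells, while 528 and 663 had 1 to 9 counts and 221 and 421 had 10 to 99. The 91 genes thus lie at the upper end of a graded distribution. In bulk RNA, few cells with much RNA of a gene and many cells with little of it cannot be told apart, so "on" refers to the library and not to each cell. Turning the rule round gave fewer genes. Of protein-coding genes at 0 in adriamycin-resistant cells, 45 had 100 or more counts elsewhere, 9 of them in parental cells and 42 in paclitaxel-resistant cells. Of those at 0 in paclitaxel-resistant cells, 22 did, 11 of them in parental and 15 in adriamycin-resistant cells. With all counts scaled to the smallest library the numbers were 83, 35 and 19 for genes silent in parental, adriamycin-resistant and paclitaxel-resistant cells, before the families were set aside.

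Although the classes are named after 1 line or both, many genes had some reads in the other line as well. Of the 91 genes, 65 had at least 1 count in adriamycin-resistant and 87 in paclitaxel-resistant cells. Among the 61 genes on in paclitaxel-resistant cells only, 26 were at 0 in adriamycin-resistant cells, 15 had 1 to 9 counts and 20 had 10 to 99. Among the 15 on in adriamycin-resistant cells only, 4 were at 0 in paclitaxel-resistant cells, 5 had 1 to 9 counts and 6 had 10 to 99. On TMM-normalized CPM, 68 of the 91 genes (74.7%) were at least 2-fold higher in paclitaxel-resistant than in adriamycin-resistant cells, 15 (16.5%) at least 2-fold higher in adriamycin-resistant cells, and 8 lay within 2-fold. Over all 19561 genes compared, the corresponding shares were 19.9% and 13.3%, but a gene chosen for being on in 1 line and silent elsewhere had to differ, so nothing is read from the excess. Against parental cells, 10.6% of all genes compared were at least 2-fold higher in adriamycin-resistant and 20.2% in paclitaxel-resistant cells.

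**Figure D1:**
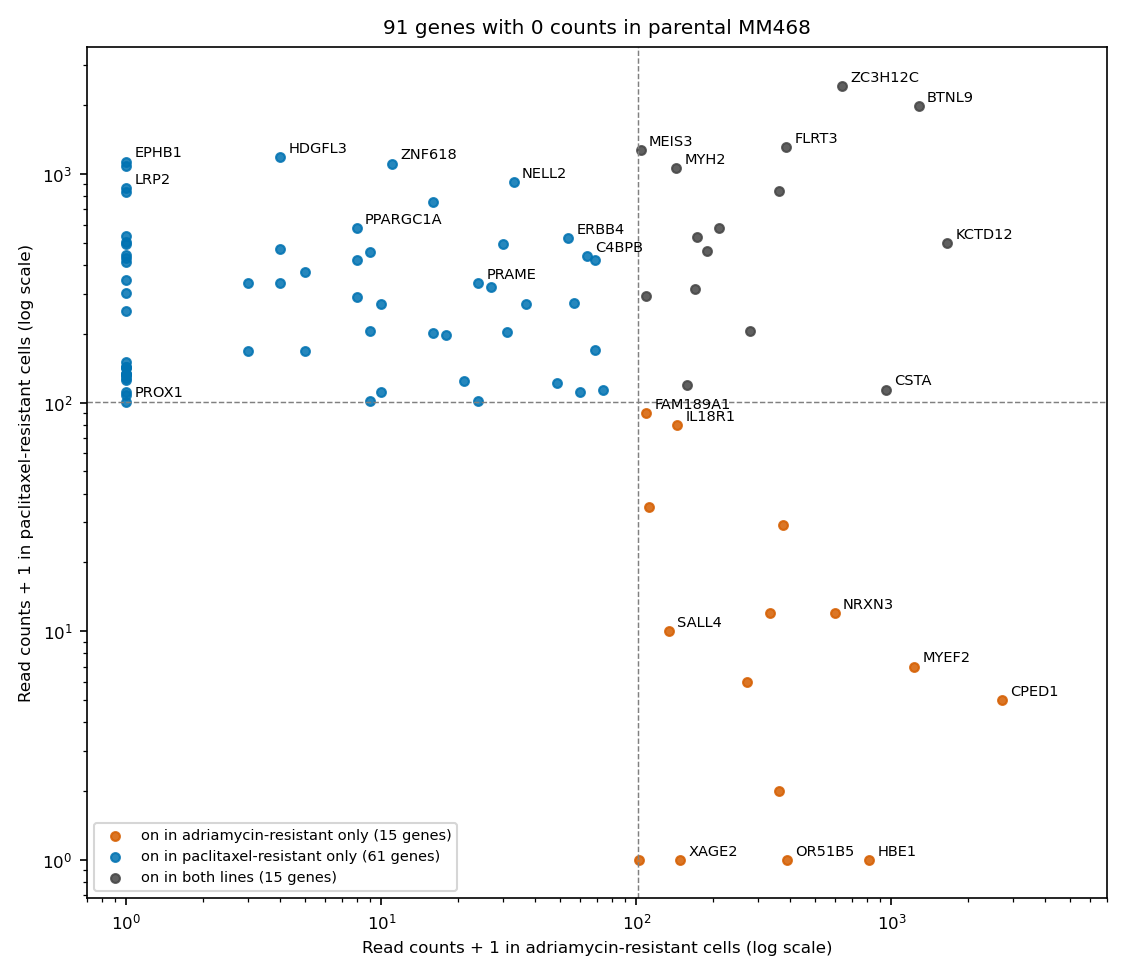
Read counts plus 1 of the 91 genes in adriamycin-resistant (x axis) and paclitaxel-resistant cells (y axis), both on log scales, with 1 point per gene coloured by class and dashed lines at 100 counts. The column of points at the left edge holds the 26 genes with 0 counts in adriamycin-resistant cells, and 15 genes lie beyond both lines.

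In size the signals ran from the threshold of 100 to 2718 counts. The 15 genes on in adriamycin-resistant cells only had 101 to 2718 counts there (median 332) and the 61 on in paclitaxel-resistant cells only had 100 to 1182 (median 272). The 15 genes on in both had 103 to 1648 counts in adriamycin-resistant and 113 to 2433 in paclitaxel-resistant cells. Per length, on the deposited TPM scale, 15 of the 91 reached 10 TPM or more in a resistant line and 11 stayed under 1 TPM. Together they took 0.0325% of the counts in adriamycin-resistant and 0.0791% in paclitaxel-resistant cells. Just inside the threshold lay PROX1 with 100 counts in paclitaxel-resistant cells and MAGI2 and TEX15 with 101 in the same cells. Just outside it lay CUZD1 with 98 and 0 counts in adriamycin-resistant and paclitaxel-resistant cells and PDE7B with 96 and 37.

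The promoters of these genes were of both kinds, CpG-rich and CpG-poor, and the sequences that show this are printed first. Each is the 120 bases directly upstream of the start that lies farthest upstream in RefSeq, read 5′ to 3′ on the gene's strand in GRCh38.p14, with every CG dinucleotide in capitals. ZC3H12C (chr11:110093272-110093391, plus strand) and KCTD12 (chr13:76886406-76886525, minus strand) are shown as genes on in both lines with 22 and 18 CG dinucleotides, CHRDL1 (chrX:110795818-110795937, minus strand) as a gene on in paclitaxel-resistant cells with 8, and C4BPB (chr1:207088740-207088859, plus strand) as one with 1.
ZC3H12C: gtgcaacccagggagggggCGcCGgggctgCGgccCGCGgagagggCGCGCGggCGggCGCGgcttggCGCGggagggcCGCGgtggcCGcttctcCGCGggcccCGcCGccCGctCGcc
KCTD12: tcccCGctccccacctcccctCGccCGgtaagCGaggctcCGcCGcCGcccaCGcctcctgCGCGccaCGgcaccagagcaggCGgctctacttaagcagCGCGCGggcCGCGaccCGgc
CHRDL1: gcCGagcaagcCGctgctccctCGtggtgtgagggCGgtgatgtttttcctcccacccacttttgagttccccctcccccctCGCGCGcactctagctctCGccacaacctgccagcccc
C4BPB: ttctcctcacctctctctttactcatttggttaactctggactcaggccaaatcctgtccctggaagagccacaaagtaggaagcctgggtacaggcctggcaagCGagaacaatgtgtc

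A promoter was called CpG-rich when, in the window from 250 bases before to 50 bases after the start, its GC content was at least 50% and its CG dinucleotides reached at least 0.6 of the number that its C and G content would give by chance. RefSeq windows were at hand for 73 of the 91 genes. Of these, 43 (58.9%) were CpG-rich. The share was 63.8% of the 15515 protein-coding genes with a window, 82.2% of the 9442 with 100 or more parental counts and 24.6% of the 2800 at 0 in all 3 libraries. The median ratio of observed to expected CG was 0.696 in the 73, 0.765 over all protein-coding genes, 0.849 in those with 100 or more parental counts and 0.299 in those at 0 in all libraries. By class, 8 of 13 promoters were CpG-rich among genes on in both lines, 5 of 10 among those on in adriamycin-resistant cells only and 30 of 50 among those on in paclitaxel-resistant cells only. No test was made of these shares.

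**Figure D2:**
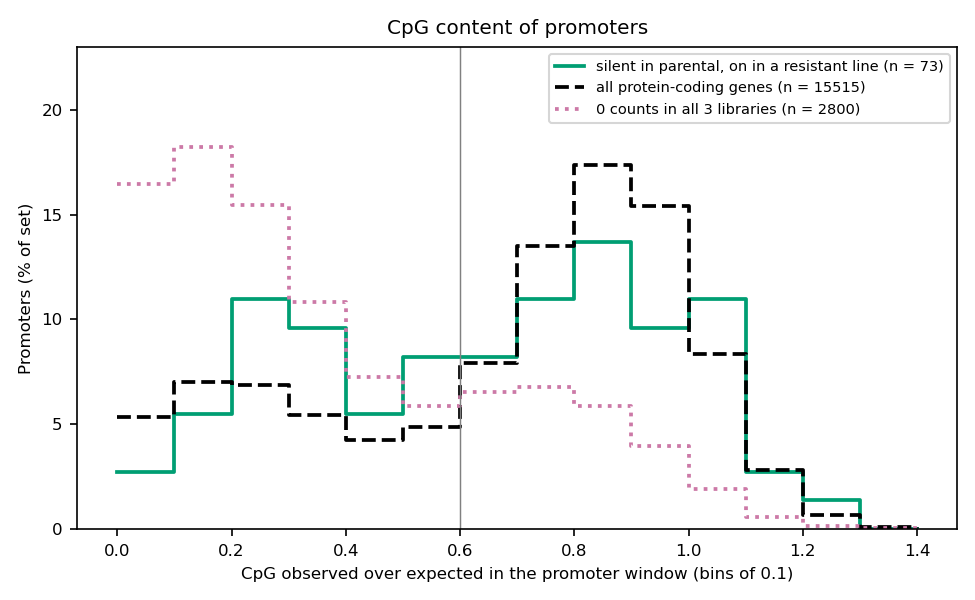
Share of promoters (y axis, % of the set) by the ratio of observed to expected CG dinucleotides in the promoter window (x axis, bins of 0.1), for the 73 genes with a window, for all 15515 protein-coding genes with one and for the 2800 at 0 in all 3 libraries. The vertical line marks the limit of 0.6, and the 73 genes have promoters on both sides of it.

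The letters TATAAA stood between 40 and 15 bases before the start in 3 of the 73 windows (4.11%), those of MYH2, MYH13 and BCAT1, against 3.67% of all protein-coding windows. MYH2 and MYH13 encode myosin heavy chains of skeletal muscle, and 120 bases upstream of each are shown, from GRCh38.p14, with TATAAA in capitals because the match lies at 31 bases before the start of MYH2 (chr17:10549659-10549778, minus strand) and at 29 before that of MYH13 (chr17:10373007-10373126, minus strand).
MYH2: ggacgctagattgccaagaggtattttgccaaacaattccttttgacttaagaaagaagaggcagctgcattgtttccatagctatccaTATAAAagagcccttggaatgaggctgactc
MYH13: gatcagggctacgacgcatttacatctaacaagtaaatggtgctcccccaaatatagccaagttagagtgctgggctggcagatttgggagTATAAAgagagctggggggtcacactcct

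Both strands of the whole window were also searched for 5 other short words. CCAAT was found in 20.5% of the 73 windows and in 36.5% of all protein-coding windows, CACGTG in 11% and 8.89%, TGANTCA in 4.11% and 5.70%, and GCGTG in 37.0% and 44.3%. TGACGTCA was in 0 of the 73 windows and in 2.59% of all, which says only that these letters are not in these windows.

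Genes on in both lines are described first. The highest count in a single library among the 15 was that of ZC3H12C (NCBI Gene 85463, chr11:110093392-110171841), a member of the family of CCCH zinc finger ribonucleases that degrade inflammatory mRNAs. It had 0, 639 and 2433 counts in parental, adriamycin-resistant and paclitaxel-resistant cells, in which order counts are given throughout, and so lay at least 145-fold and at least 526-fold above the level of 3 parental counts. BTNL9 (NCBI Gene 153579, chr5:181040266-181061521), a butyrophilin-like surface protein of the immunoglobulin superfamily, had 0, 1278 and 1985 counts, at least 291-fold and 429-fold above that level. Both resistant libraries were far from the parental one, and BTNL9 differed between them by 1.47-fold (95% interval 1.37 to 1.58) in favour of paclitaxel-resistant cells. Intervals are exact binomial and cover counting error only.

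FLRT3, a leucine-rich repeat transmembrane protein of axon guidance, had 0, 386 and 1308 counts. MEIS3, a homeobox transcription factor that acts beside HOX proteins, had 0, 103 and 1274 counts and, at 34.7 TPM, the highest level of any of the 91 genes in paclitaxel-resistant cells. The order was the same for MYH2, with 0, 142 and 1056 counts. These 3 genes were 3.22-fold (95% interval 2.87 to 3.61), 11.7-fold (9.60 to 14.5) and 7.06-fold (5.92 to 8.47) higher in paclitaxel-resistant than in adriamycin-resistant cells. PLEKHA5, a pleckstrin homology domain protein, had 0, 361 and 839 counts, SCN8A, a voltage-gated sodium channel, 0, 210 and 580, and FHOD3, a formin that organizes actin in heart muscle, 0, 172 and 528. LPL, the lipoprotein lipase that frees fatty acids from circulating lipoproteins, had 0, 188 and 459 counts.

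The opposite order was seen for 2 genes of this class. KCTD12, an auxiliary subunit of GABA-B receptors (NCBI Gene 115207, chr13:76880175-76886405), had 0, 1648 and 499 counts and was 3.48-fold (95% interval 3.15 to 3.85) higher in adriamycin-resistant cells. CSTA, cystatin A, an inhibitor of cathepsins in stratified epithelium (NCBI Gene 1475, chr3:122325248-122341969), had 0, 950 and 113 counts and was 8.86-fold (7.28 to 10.9) higher in adriamycin-resistant cells. On the TPM scale CSTA reached 56.7 in adriamycin-resistant cells, second among the 91 genes. In all, 9 of the 15 genes were at least 2-fold higher in paclitaxel-resistant cells, 2 in adriamycin-resistant cells and 4 lay within 2-fold. Those 4 were BTNL9, C7orf31 with 168 and 313 counts in adriamycin-resistant and paclitaxel-resistant cells, POTEM with 279 and 204, and MCTP1 with 157 and 118. SYNE1, a giant nuclear envelope protein, was the remaining gene, with 108 and 293 counts. SYNE1 overlaps ESR1 in the annotation, and ESR1 had 152, 335 and 161 counts.

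**Figure D3:**
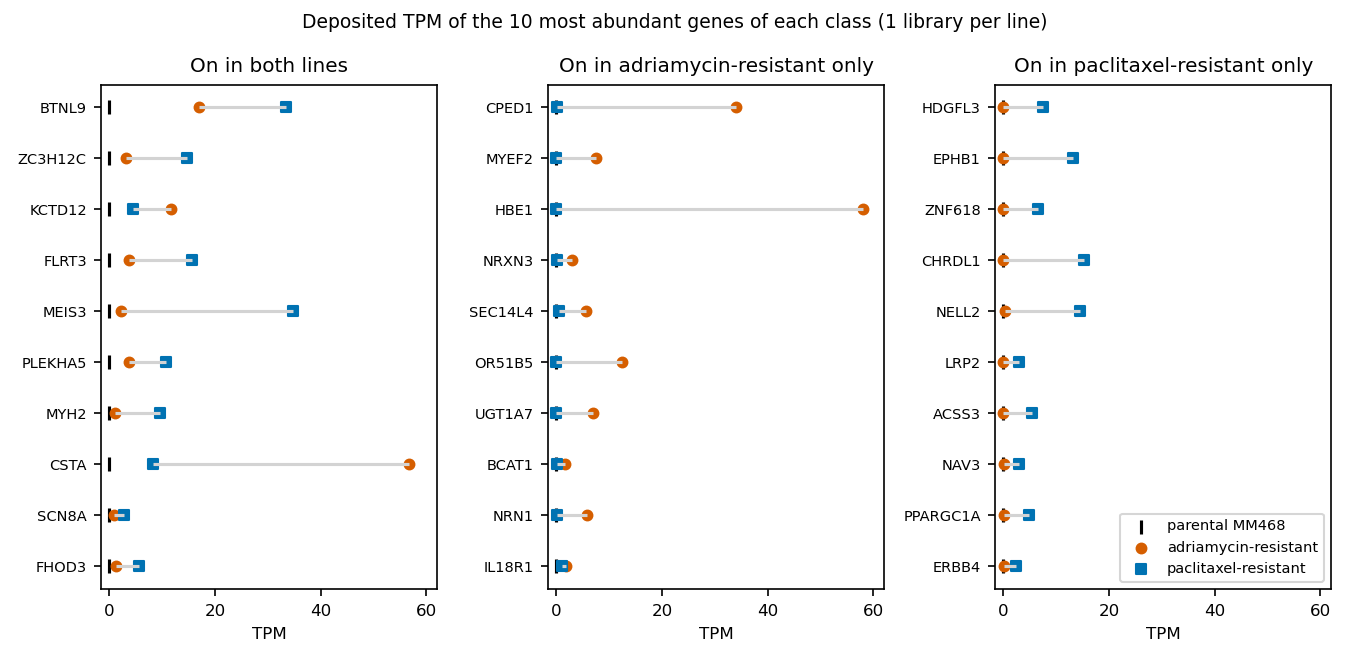
Deposited TPM (x axis, linear, 1 library per line) of the 10 genes with the highest summed CPM in each class, in parental MM468 (black bars, all at 0), adriamycin-resistant (orange circles) and paclitaxel-resistant cells (blue squares). HBE1 at 58.1 and CSTA at 56.7 TPM in adriamycin-resistant cells lie farthest to the right, and no gene on in paclitaxel-resistant cells only among those drawn exceeds 15.3.

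In adriamycin-resistant cells the largest count of any of the 91 genes was that of CPED1, a protein with cadherin-like and PC-esterase domains (NCBI Gene 79974, chr7:120988711-121297442). It had 0, 2718 and 4 counts, at least 619-fold above the parental floor and 716-fold (95% interval 279 to 2630) above paclitaxel-resistant cells. Its promoter window was CpG-rich, with 20 CG dinucleotides and a ratio of 0.734. MYEF2, a repressor of the myelin basic protein gene (NCBI Gene 50804), had 0, 1226 and 6 counts. NRXN3, a presynaptic neurexin, had 0, 598 and 11 counts, and NRN1, neuritin, an extracellular protein that promotes neurite outgrowth, had 0, 270 and 5. These 4 genes had few reads in paclitaxel-resistant cells, and each was at least 56.9-fold higher in adriamycin-resistant cells by TMM-normalized CPM.

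The highest TPM of all 91 genes, 58.1, belonged to HBE1, the embryonic epsilon-globin (NCBI Gene 3046, chr11:5268345-5269945). HBE1 had 0, 815 and 0 counts. The olfactory receptor gene OR51B5 (NCBI Gene 282763, chr11:5340318-5505652), 70.4 kb away in the same direction, had 0, 389 and 0 counts. Both were at least 186-fold and 88.6-fold above the parental floor. Their neighbours were nearly silent: HBB and HBD had 0 counts in each library, HBG1 0, 9 and 0, HBG2 0, 14 and 0, and OR51B4 and OR51B2, which lie between HBE1 and OR51B5, 0, 14 and 0 and 0, 13 and 0. In GENCODE v29, 2 of 3 transcripts of HBE1 and 4 of 5 of OR51B5 start within 100 bases of position 5505652 on chromosome 11, and 1 of 3 of HBG2 does, so that the annotated genes overlap on 1 strand and some reads may belong to either. Which annotation release was used for the counts is not given in the sources used here, and transcripts cannot be told apart in these gene counts.

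Other genes on in adriamycin-resistant cells only had smaller signals. SEC14L4, a lipid-binding protein, had 0, 373 and 28 counts, and BCAT1, the cytosolic transaminase of branched-chain amino acids, 0, 332 and 11. UGT1A7, a UDP-glucuronosyltransferase of drug metabolism, had 0, 361 and 1 counts, but it shares its last exons with the other UGT1A genes, and the overlapping UGT1A6 had 50, 3602 and 1691. How reads were shared among these genes is not given in the sources used here. IL18R1, the receptor of interleukin 18, had 0, 143 and 79 counts and FAM189A1 0, 108 and 89, so that both lay within 2-fold of paclitaxel-resistant cells although only adriamycin-resistant cells passed 100. IL18R1 lies among interleukin 1 receptor genes, of which IL1R2 had 14, 589 and 53 counts and IL1RL1 4, 117 and 8. The last of the 15, described below with the transcription factors and germline genes, included SALL4, DMRTA2 and XAGE2.

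In paclitaxel-resistant cells the genes with the most counts included receptors and secreted regulators. EPHB1, a receptor tyrosine kinase for ephrin-B ligands (NCBI Gene 2047, chr3:134795260-135260467), had 0, 0 and 1133 counts, at least 245-fold above parental and at least 358-fold above adriamycin-resistant cells. ERBB4, a receptor of the EGFR family that binds neuregulins (NCBI Gene 2066, chr2:211375717-212538802), had 0, 53 and 523 counts and was 9.36-fold (95% interval 7.05 to 12.7) higher in paclitaxel-resistant than in adriamycin-resistant cells. EGFR itself had 166693, 270028 and 230621 counts, so ERBB4 was scarce beside it at 2.37 against 1288 TPM in paclitaxel-resistant cells. LRP2, megalin, an endocytic receptor of absorptive epithelia, had 0, 0 and 865 counts. TEK, the angiopoietin receptor of endothelium, had 0, 59 and 110 counts, while the endothelial markers PECAM1, CDH5 and VWF were at 2, 21 and 16 in paclitaxel-resistant cells. Of the 8 surface receptor genes, the other 4 were IL18R1 and OR51B5, given above, PTPRQ, a receptor phosphatase of inner-ear hair cells, at 0, 0 and 251, and OR7G2, an olfactory receptor gene, at 0, 0 and 141.

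Among secreted proteins, CHRDL1, an antagonist of bone morphogenetic proteins (NCBI Gene 91851, chrX:110673856-110795817), had 0, 0 and 1083 counts. C4BPB, the beta chain of the complement inhibitor C4b-binding protein (NCBI Gene 725, chr1:207088860-207099993), had 0, 63 and 437 counts and the highest TPM of the class, 20.5. SERPINA1, alpha-1 antitrypsin, a liver protein that inhibits elastase, had 0, 2 and 334 counts, and OLFML1 had 0, 36 and 270. With LPL, given above, all 5 secreted proteins were at least 2-fold higher in paclitaxel-resistant than in adriamycin-resistant cells, as were 74.7% of all 91 genes. The promoter of C4BPB held 1 CG dinucleotide in its whole window and that of CHRDL1 held 36.

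Of the 91 genes, 10 have roles in the adhesion and growth of neurons. Genes were sorted by role for description after their values were seen, so the sizes of such groups say nothing about the set, and 67.0% of all 91 genes were on in paclitaxel-resistant cells only. Of these 10, 7 were. NELL2, a secreted ligand of axon guidance receptors, had 0, 32 and 924 counts. NAV3, a microtubule-associated navigator protein, had 0, 15 and 754, LINGO2, a leucine-rich repeat protein of neurons, 0, 0 and 495, and NLGN4X, a postsynaptic neuroligin, 0, 7 and 418. By TMM-normalized CPM each was at least 27.4-fold higher in paclitaxel-resistant than in adriamycin-resistant cells. TENM4, a teneurin, had 0, 0 and 131 counts, NYAP2 0, 48 and 121, and MAGI2, a scaffold of synapses and tight junctions, 0, 23 and 101. FLRT3 was on in both lines, and NRXN3 and NRN1 in adriamycin-resistant cells only, so the group was divided between the lines. Its highest TPM ranged from 0.245 for MAGI2 to 15.6 for FLRT3.

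Of 8 genes of ion channels, transporters and their partners, 6 were on in paclitaxel-resistant cells only, near the share over the whole set. JPH3, a junctophilin that couples membranes in neurons, had 0, 29 and 492 counts and KCNJ4, an inward-rectifier potassium channel, 0, 8 and 204. SLC9A9, a sodium-proton exchanger of endosomes, had 0, 2 and 167, CACNA2D1, an accessory subunit of calcium channels, 0, 0 and 124, SLC16A7, a monocarboxylate transporter, 0, 20 and 123, and SCN9A, a sodium channel of sensory neurons, 0, 0 and 107. The other 2, KCTD12 and SCN8A, were on in both lines.

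Of the 7 metabolic enzymes, 5 were on in paclitaxel-resistant cells only. ACSS3, a mitochondrial acyl-CoA synthetase, had 0, 0 and 834 counts and ST6GAL2, a sialyltransferase, 0, 3 and 470. CYP2R1, the vitamin D 25-hydroxylase, had 0, 0 and 440, AGMO, which cleaves ether lipids, 0, 15 and 200, and CHST10, which makes the HNK-1 sugar epitope, 0, 0 and 142. BCAT1 and UGT1A7 were on in adriamycin-resistant cells only. The 5 signalling proteins, sorted out after their values were seen, were on in paclitaxel-resistant cells only, as were 67.0% of all 91 genes. PAK3, a p21-activated kinase of neurons, had 0, 8 and 455 counts, PARP8 0, 0 and 411, ADCY1, a calcium-stimulated adenylyl cyclase, 0, 3 and 333, RFTN1 0, 30 and 203, and RGS7, which speeds the turning-off of G proteins, 0, 0 and 132.

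Of 5 genes of the cytoskeleton, 2 were myosins of 1 cluster on chromosome 17. MYH13, a myosin of eye and larynx muscle, had 0, 7 and 289 counts, beside MYH2 with 0, 142 and 1056. In that cluster MYH8 and MYH4 had 0 counts in all libraries, MYH1 had 0, 10 and 29, and the embryonic MYH3, which had parental reads and so was not chosen, had 5, 90 and 344. MYH13, MYH1, MYH2 and MYH3 stood in the same order, with most counts in paclitaxel-resistant cells. MAPRE2, a protein that binds growing microtubule ends, had 0, 0 and 534 counts, and FHOD3 and SYNE1 were on in both lines.

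**Figure D4:**
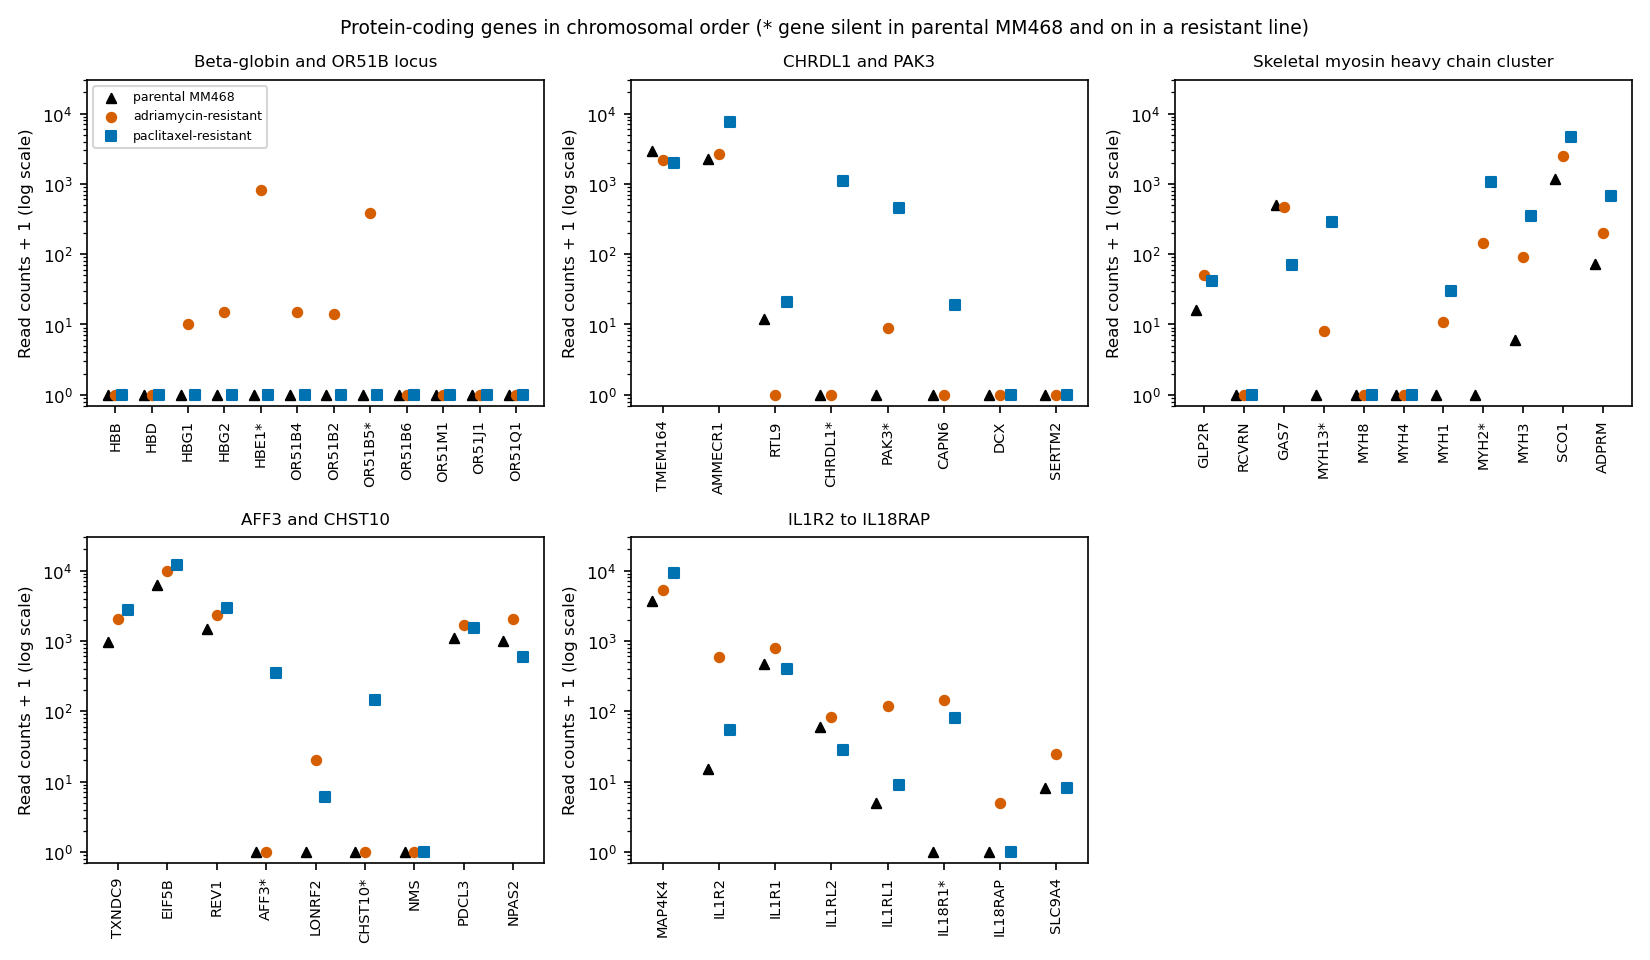
Read counts plus 1 (y axis, log scale) of protein-coding genes in chromosomal order (x axis) at 5 loci, in parental MM468 (black triangles), adriamycin-resistant (orange circles) and paclitaxel-resistant cells (blue squares), with an asterisk on genes silent in parental cells and on in a resistant line. Reads at the beta-globin locus come from adriamycin-resistant cells only and gather on HBE1 (815 counts) and OR51B5 (389), while CHRDL1 (1083) and PAK3 (455) stand out in paclitaxel-resistant cells.

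Transcription factors and chromatin proteins, also sorted out after their values were seen, made up 14 of the 91 genes. Of these, 9 were on in paclitaxel-resistant cells only, near the share of 67.0% over all 91 genes. In adriamycin-resistant cells only, 4 were on, and 1, MEIS3, was on in both. In paclitaxel-resistant cells, PPARGC1A, the coactivator of mitochondrial biogenesis, had 0, 7 and 577 counts, and MECOM, a zinc finger factor of blood stem cells, 0, 0 and 504. MECOM overlaps the pseudogene RPL22P1, which had 651, 1215 and 837. SFMBT2, a polycomb-related protein, had 0, 68 and 421 counts, AFF3 0, 0 and 344, LEF1, a nuclear partner of beta-catenin, 0, 0 and 133, MKX, the tendon factor mohawk, 0, 73 and 112, and PROX1, the homeobox factor of lymphatic vessels and liver, 0, 0 and 100. MKX differed between the resistant lines by only 1.46-fold (95% interval 1.07 to 1.98).

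SALL4, a zinc finger factor of embryonic stem cells, was on in adriamycin-resistant cells with 0, 133 and 9 counts. DMRTA2, a doublesex-related factor of the embryonic brain, had 0, 111 and 34 counts. MYEF2, given above, also belongs here. Of 518 genes with a symbol starting with ZNF, 41 had no parental count and 2 were among the 91, which is 4.88% of the silent ZNF genes beside 1.73% of all silent protein-coding genes and rests on 2 genes. ZNF618 had 0, 10 and 1109 counts and ZNF546 0, 4 and 167, both with most counts in paclitaxel-resistant cells. The ratio of counts to TPM, which follows the length of the transcripts read, could be compared between the resistant lines for 41 of the 91 genes. It differed by more than 1.25-fold, relative to all genes, for ZNF618, FHOD3, TMEM98, FTCDNL1 and NRXN3. This is 5 of 41 (12.2%) against 2.37% of 16615 genes. ZNF618, with 1.87-fold, had 10 counts in adriamycin-resistant cells and FTCDNL1 had 26, and NRXN3 had 11 in paclitaxel-resistant cells. The 41 were chosen by counts and many are low in 1 line, so nothing is read from the excess. Isoforms were not measured.

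Of 90 cancer-testis genes listed, 69 had no parental count, 56 had no count in any library and 3 were among the 91. This is 4.35% of the silent genes of the list, beside 1.73% of all 5272 silent protein-coding genes, and rests on 3 genes. PRAME, an antigen of melanoma and testis, had 0, 23 and 332 counts, XAGE2, an X-linked cancer-testis gene, 0, 147 and 0, and TEX15, which is needed for meiosis, 0, 8 and 101. Others of the list were already abundant in parental cells, for instance MAGEA3 with 11335, 16176 and 12175 counts. Of 39 imprinted genes listed, 14 had no parental count and none was among the 91, and at the share of 1.73% over all silent genes so short a list says nothing about imprinted genes. POTEM, a primate-specific gene of testis and prostate, was on in both lines with 279 and 204 counts, and its near-identical relative POTEG had 0, 57 and 26, so reads may be divided between copies.

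Genes of antigen presentation were on in paclitaxel-resistant cells. HLA-DQB1, a class II chain, had 0, 0 and 149 counts and HLA-G, a class I molecule of the placenta, 0, 0 and 110. HLA genes resemble each other closely. Reads placed on the wrong HLA gene cannot be told apart from HLA-G or HLA-DQB1 transcripts in these counts.

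The remaining genes on in paclitaxel-resistant cells only have varied or little-known roles. HDGFL3, a relative of hepatoma-derived growth factor (NCBI Gene 50810, chr15:83112738-83207823), had the most counts of its class, 0, 3 and 1182, at least 255-fold above the parental floor and 374-fold (95% interval 128 to 1815) above adriamycin-resistant cells. TMEM47 had 0, 0 and 426 counts, PRR16 0, 4 and 372, FTCDNL1 0, 26 and 319, SAMD5 0, 0 and 301, FAM171A1 0, 56 and 272, CPPED1 0, 9 and 268, TMEM98 0, 68 and 168, WSCD1 0, 0 and 142, and MCTP2 0, 0 and 133. All were at least 2-fold higher in paclitaxel-resistant than in adriamycin-resistant cells. The 3 readthrough genes, which join the exons of neighbouring genes, were FAM47E-STBD1 with 0, 17 and 197 counts, C8orf44-SGK3 with 0, 0 and 127 and GPR75-ASB3 with 0, 9 and 110. Their component genes STBD1, SGK3 and ASB3 had 379, 553 and 654 counts in parental cells, so the loci were not silent there.

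Position had no part in the rule. The 91 genes lay on 22 chromosomes, with 12 on chromosome 2 (13.2%, beside 6.30% of all protein-coding genes), 8 on chromosome 12 (8.79% beside 5.17%) and 5 on X (5.49% beside 4.35%). Within 1000 kb of another lay 14 of them, in 7 pairs. Of these pairs, 5 were on in the same line: HBE1 and OR51B5 in adriamycin-resistant cells, and PTPRQ and ACSS3 (398 kb apart), AFF3 and CHST10 (249 kb), TEK and LINGO2 (707 kb) and CHRDL1 and PAK3 (149 kb) in paclitaxel-resistant cells. MYH13 and MYH2 shared paclitaxel-resistant cells. Between AFF3 and CHST10 lies LONRF2, which had 0, 19 and 5.

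The nearest protein-coding genes on each side that were not themselves among the 91 numbered 177. Of these, 81 (45.8%) had no parental count, against 26.4% of 19462 protein-coding genes placed on a chromosome. Of the 110 with enough counts to compare, 22 (20%) were at least 2-fold higher in adriamycin-resistant than in parental cells and 29 (26.4%) in paclitaxel-resistant cells, beside 8.64% and 13.8% of all such protein-coding genes. Split by class, neighbours of the genes on in adriamycin-resistant cells only were higher in adriamycin-resistant cells in 7 of 15 cases and in paclitaxel-resistant cells in 3 of 15. Neighbours of the genes on in paclitaxel-resistant cells only were higher in paclitaxel-resistant cells in 22 of 79 cases (27.8%) and in adriamycin-resistant cells in 12 of 79 (15.2%). These shares were not tested. In the annotation 51 of the 91 genes overlap another gene of the table, and for 12 the other gene had 10 or more parental counts, among them NSMCE3 over FAM189A1 with 121, 559 and 616 counts, KLHDC4 over JPH3 with 2110, 3350 and 3259 and TPGS2 over FHOD3 with 3024, 3007 and 4603.

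Finally, 58 genes of DNA methylation, polycomb, histone deacetylation and H3K9 methylation were listed, none of which was silent in any library. The list, called silencing genes for short, also holds TET1, TET2, TET3, KDM6A and KDM6B, which act against DNA methylation or polycomb marks. In adriamycin-resistant cells 0 of 58 were at least 2-fold higher than in parental cells and 3 were lower, namely HDAC1, a histone deacetylase, with 6187, 3966 and 7534 counts and log2 fold changes of -1.19 and -0.34 in adriamycin-resistant and paclitaxel-resistant cells, HDAC9 with 1601, 749 and 2446 (-1.65 and -0.01) and KDM1A, a histone demethylase listed with the deacetylases, with 5719, 4066 and 8336 (-1.04 and -0.08). In paclitaxel-resistant cells 1 was higher and 2 were lower. TASOR, the core of the HUSH complex, which silences through H3K9 methylation, had 2515, 5159 and 8808 counts and was 2.27-fold higher. CBX7, a polycomb reader of histone marks, had 663, 523 and 333 counts (log2 fold change -1.62), and DAXX, which deposits histone H3.3 in silent chromatin, had 4611, 5626 and 3314 (-1.10, or -0.88 when scaled by library size only). DNMT1, the maintenance DNA methyltransferase, had 30007, 43786 and 24971 counts, a log2 fold change of -0.89 in paclitaxel-resistant cells that did not reach 2-fold. EZH2, the polycomb methyltransferase, had 4494, 4244 and 4768 (-0.63 and -0.54), also short of 2-fold. Related genes went both ways: EZH1 stood at 0.60 and 0.97, SUZ12 at 0.77 and 0.62, DNMT3A at 0.04 and 0.13 and DNMT3B at -0.57 and 0.34. Over the 58 genes the median log2 fold changes were -0.05 in adriamycin-resistant and -0.09 in paclitaxel-resistant cells. Over all genes compared, 11.5% were at least 2-fold lower in adriamycin-resistant and 13.7% in paclitaxel-resistant cells, and 10.6% and 20.2% were at least 2-fold higher. DNA methylation and histone marks were not measured.

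**Figure D5:**
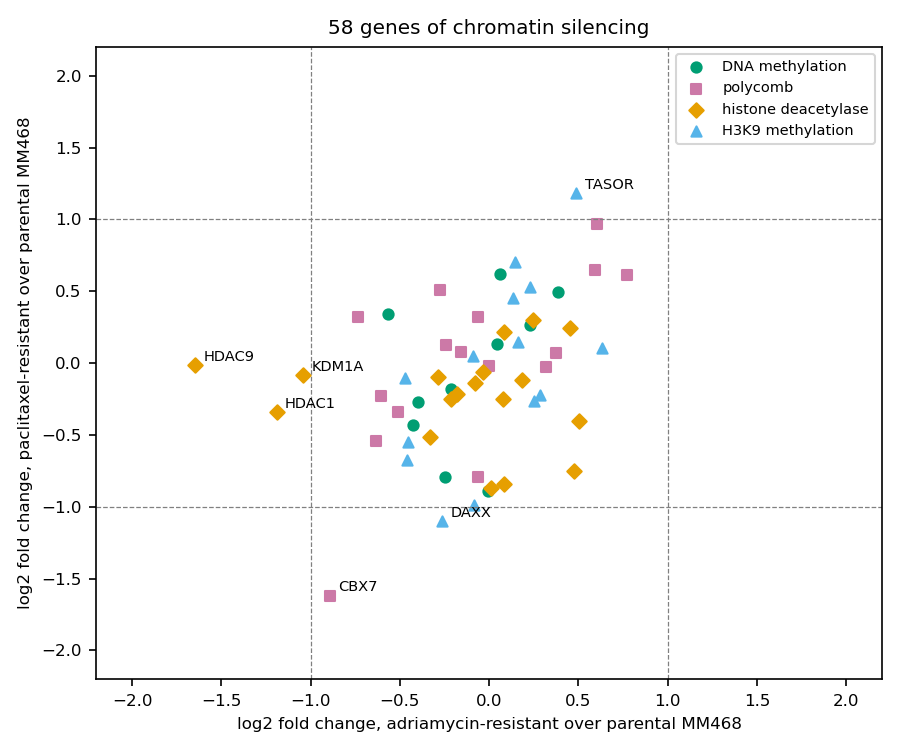
Log2 fold change of 58 genes of DNA methylation, polycomb, histone deacetylation and H3K9 methylation in adriamycin-resistant (x axis) and paclitaxel-resistant cells (y axis) over parental MM468, with 1 point per gene, symbols by group and dashed lines at 2-fold. Only the 6 named genes lie beyond a dashed line, HDAC9 lowest in adriamycin-resistant cells at -1.65 and CBX7 lowest in paclitaxel-resistant cells at -1.62.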

How the data were processed

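The data were 1 table with whole-number read counts, FPKM and TPM for 1 library of each of the 3 lines. The authors deposited the counts without normalization. The deposited FPKM and TPM are normalized for gene length and depth. Libraries were sequenced and analysed by a company, and the submitters' processing notes name Trimmomatic 0.39, HISAT2 2.2.1, StringTie 2.2.1 and GRCh38. The annotation release and the counting settings are not given in the sources used here. The RNA kit named in the labels differs from that in the study's methods.

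Library sizes were scaled with edgeR 4.0.16 (TMM, R 4.3.3) on the 19561 genes with 10 or more counts in a library, which all 91 genes were. No test was run, since a fit with 1 library per line has no residual degrees of freedom. A fold against 0 counts is a lower bound against 3 counts per library, and other folds have exact binomial 95% intervals (scipy 1.17.1) that cover counting error only. The rule gave the 91 genes, and members and gene lists were chosen with earlier results of these data known. Genes were named as the 10 with the highest summed CPM of each class, those next to the threshold, those in the gene lists, neighbouring pairs, silencing genes changed 2-fold and the 3 highest non-coding genes. The other members were named to account for the whole set, and their grouping by role and genes outside the set were chosen after their values were seen. Genes were matched by NCBI Gene ID to RefSeq (GRCh38.p14, 91 of 91), which also gave promoters for 73, and positions of transcripts at the globin locus come from GENCODE v29. Alternatives were other scalings (DESeq2 1.42.0 size factors, library size only), other thresholds, minimum counts and folds, the deposited FPKM and TPM, and, added after the data were seen, leaving out genes with shared reads and using another promoter start. Some genes and their values are not reported here. The steps were tested on simulated data, and figures were drawn with matplotlib 3.10.9.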

Additional observations from a re-analysis of the deposited data

Results flagged for a closer look

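Genes that are not protein-coding were outside the rule. Of these, 47 had 0 parental counts and 100 or more in a resistant line, namely 36 long non-coding RNAs, 7 pseudogenes and 4 transcribed pseudogenes. In this group 9 were on in adriamycin-resistant cells only, 26 in paclitaxel-resistant cells only and 12 in both. The highest were LINC00839, with 1434 counts in adriamycin-resistant and 584 in paclitaxel-resistant cells, LCAL1, with 1254 in paclitaxel-resistant and 73 in adriamycin-resistant cells, and the transcribed pseudogene CCNYL2, with 711 in adriamycin-resistant and 346 in paclitaxel-resistant cells. They are listed because they lie outside the protein-coding genes described and were above the parental level of 0.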

How the results depend on the processing

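The number of genes followed the count called on: 175 at 50 counts (36 on in adriamycin-resistant cells only, 110 in paclitaxel-resistant cells only and 29 in both), 60 at 200 (7 in both) and 26 at 500 (6, 18 and 2). A rule of 0 TPM in parental and 1 TPM or more in a resistant line gave 145 genes, 80 of them among the 91. With 10 counts enough in the second line, 9 were on in adriamycin-resistant cells only and 41 in both, and with 1 count, 4 in adriamycin-resistant cells only, 26 in paclitaxel-resistant cells only and 61 in both. With FPKM and a pseudocount of 1, 42 of the 91 were at least 2-fold higher in paclitaxel-resistant than in adriamycin-resistant cells. Allowing up to 3 parental counts gave 108 genes, scaling the resistant libraries to the parental depth 72, and leaving out genes with shared reads 84. The smallest bound against the parental floor was 21.4-fold under any scaling. The recomputed bounds lay inside their counting intervals in 212 of 212 cases. Those intervals treat the floor as 3 observed counts and are far wider than the shifts between scalings. The 212 cases therefore could not have come out otherwise and say nothing about robustness. With a minimum of 100 counts, 962 genes lay at least 2-fold above parental cells and 1145 as far below them in adriamycin-resistant cells, 1631 were higher and 1801 lower in paclitaxel-resistant than in parental cells, and 1647 higher and 1751 lower than in adriamycin-resistant cells. Scaling by library size only moved the median log2 fold change over the genes compared in paclitaxel-resistant cells from 0.07 to 0.29, the share of higher among 2-fold calls from 59.6% to 70.7% against parental and from 59.9% to 71.3% against adriamycin-resistant cells, and the silencing genes in paclitaxel-resistant cells to 2 higher and 1 lower. With that minimum, the shares were 47.5% and 48.5%. The log2 fold changes in paclitaxel-resistant cells under that scaling were -1.40 for CBX7, 1.41 for TASOR and -0.88 for DAXX.

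The parental library was the shallowest, and a count of 0 in it allows up to 3 reads. Clonal variation, passage and drug at harvest cannot be told apart from resistance with 1 library per line. No paired analysis was possible because each line has 1 library and no test was run.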
